A study of Mus musculus with 144 samples.

Results

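Probes ‘1068’ and ‘1063’ are a pair of mouse miRNA probes whose blood signal was higher in mice killed 6 and 12 months after exposure than in mice killed at month 1. They were chosen by the size of that rise in the normalized log2 values, in earlier results of these same arrays, and are 2 of 1262 mouse probes and 2 of the 742 probes tested. The arrays profiled blood RNA of male C57BL/J6 mice, obtained at 7 weeks of age, after a single kind of treatment each. The negative control was dispersion medium alone (DM), the positive control was 120 µg of crocidolite asbestos, and multi-walled carbon nanotubes (MWCNT) were given at 1 µg, 10 µg, 40 µg or 80 µg. Every combination of the 6 treatments with months 1, 6 and 12 held 8 mice, 1 array per mouse, which makes 18 groups and 144 arrays. No mouse was sampled at more than 1 month, no gene was altered, and DM mice received medium without particles. A later month was also an older mouse, a longer time since exposure and another collection, and these cannot be told apart.

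MicroRNAs are short RNAs that guide a protein complex to matching sites in messenger RNAs and lower the output of those messages. In blood they come from red cells, white cells and platelets and, outside cells, from vesicles and protein complexes that many tissues release, so a level in blood RNA mixes several sources. A change in the number of cells of a type and a change in the RNA of each cell cannot be told apart in such samples. Carbon nanotubes and crocidolite are both durable fibres that remain in the lung, and blood miRNAs were profiled here to look for a circulating trace of that exposure. The files used here do not pair probe numbers with miRNA names, so the miRNA behind each probe, its sequence and its cell of origin could not be looked up.

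Both probes gave a clear signal on every array. Probe ‘1068’ lay between 311 and 2490 intensity units above local background and was at least 8.12 times the array's detection threshold on all 144 arrays. Probe ‘1063’ lay between 98 and 1321 units and was at least 2.5 times the threshold. Each probe was printed 3 times per array, and the median SD of the 3 spots was 0.159 (log2) for probe ‘1068’ and 0.137 for probe ‘1063’. The spot SD was taken on background-subtracted values and the SD between mice on normalized means of the 3 spots, so their scales differ. With 1 array per mouse, the SD between mice also holds differences between arrays. Pooled over groups, the SD between mice of 1 group was 0.245 for probe ‘1068’ and 0.305 for probe ‘1063’, against a median of 0.22 over all tested probes. Among the 100 tested probes nearest in level, that median was 0.397 for probe ‘1068’ and 0.352 for probe ‘1063’, so both varied less than the typical probe of like level. The spots of probe ‘1063’ disagreed most on the array of 1 mouse of the 1 µg group at month 12, with an SD of 1.19. Arrays were alike, with pairwise correlations over probes from 0.89 to 0.9974 and a median of 0.99. They differed in brightness, and month 6 was the dimmest month, at a mean log2 intensity before scaling of 7.58 ± 0.14 (SD, n = 48) against 7.69 ± 0.15 for month 1 and 7.68 ± 0.14 for month 12. Levels below are log2 intensities after background correction and quantile normalization, which gives all arrays the same distribution of values.

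In the DM mice, which carried no particles, probe ‘1068’ was high at both later months. Its lowest, median and highest values in 8 mice were 9.29, 9.51 and 9.82 at month 1. At month 6 they were 9.82, 10.31 and 10.61, and at month 12 they were 9.99, 10.24 and 10.77. All 8 mice of month 12 lay above all 8 mice of month 1, and at month 6 the lowest mouse met the highest of month 1. Group means were 9.55 ± 0.20 (SD, n = 8), 10.28 ± 0.26 and 10.29 ± 0.26. The log2 difference from month 1 was 0.73 ± 0.12 (SE) at month 6, a 1.66-fold higher level, and 0.73 ± 0.12 at month 12, while months 6 and 12 differed by 0.00 ± 0.12. Over all tested probes, 0.674% had every DM mouse of month 12 above every DM mouse of month 1, and 0.135% every DM mouse of month 6, this probe not among them. Because this rise chose the probe, it is given as a description, without a test.

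Probe ‘1063’ was higher at each later month in the same DM mice, in smaller steps. The lowest, median and highest values were 7.91, 8.42 and 9.01 at month 1, then 8.37, 8.76 and 9.13 at month 6, then 8.93, 9.26 and 9.50 at month 12. Months 1 and 6 overlapped widely, whereas 7 of the 8 mice of month 12 lay above the highest mouse of month 1. That count follows from the choice of the probe by its rise and was not set against all tested probes. From month 1, where the mean was 8.45 ± 0.33 (SD, n = 8), the log2 difference was 0.31 ± 0.15 (SE) at month 6 and 0.80 ± 0.15 at month 12, a 1.74-fold higher level. The second step, from month 6 to month 12, measured 0.48 ± 0.15. With each of the 16 DM mice of a pair of months left out in turn, the month 12 minus month 1 difference stayed between 0.66 and 0.77 for probe ‘1068’ and between 0.72 and 0.88 for probe ‘1063’.

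**Figure D1:**
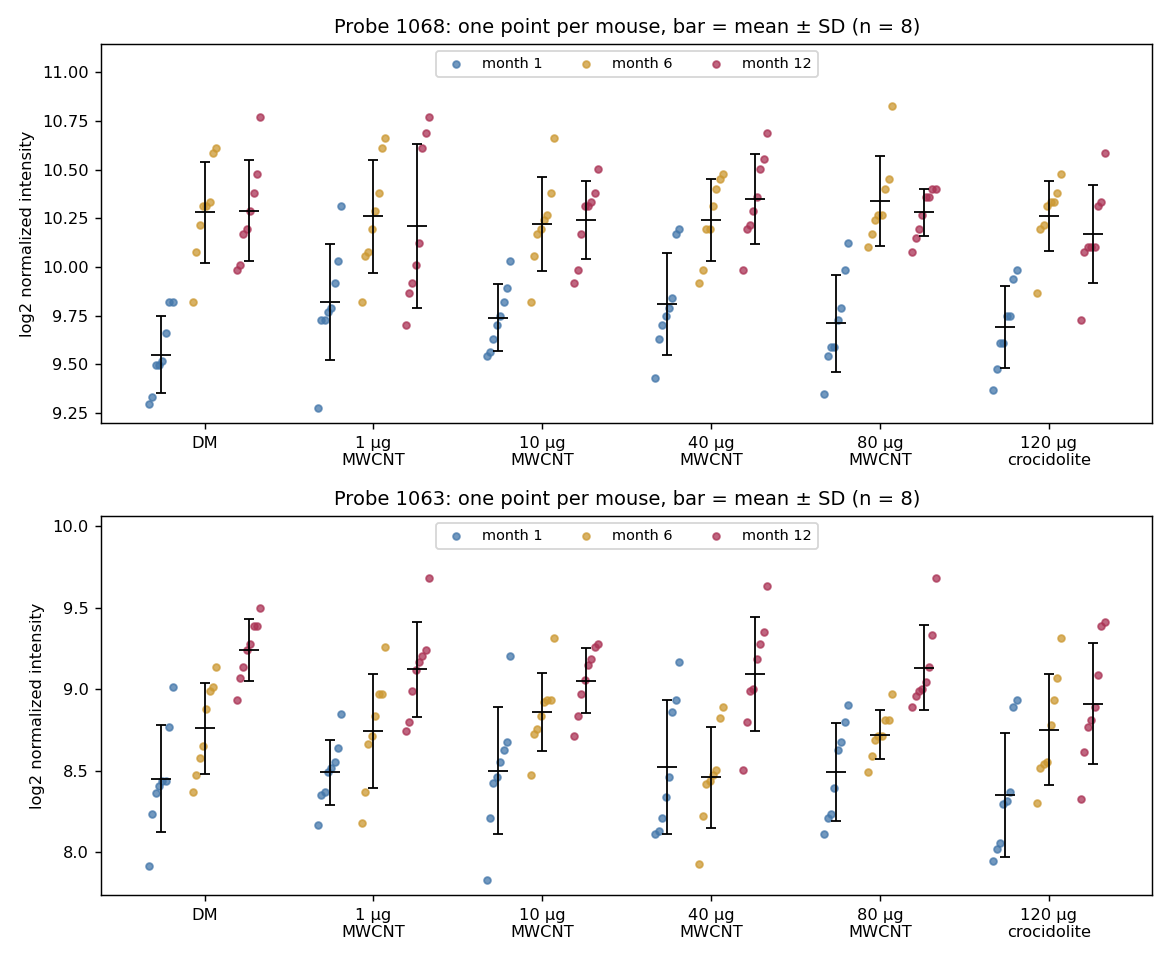
Log2 normalized intensity of probe ‘1068’ (top) and probe ‘1063’ (bottom) in every mouse, by exposure on the horizontal axis and month by colour; bars are the group mean ± SD of 8 mice. The month 1 means of probe ‘1068’ (9.55 to 9.82) lie below all its month 6 and month 12 means (10.17 to 10.35), and the means of probe ‘1063’ run from 8.35 to 8.52 at month 1 to between 8.91 and 9.24 at month 12.

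Every particle group was higher for both probes at month 12 than at month 1, and at month 6 as well, except probe ‘1063’ at 40 µg (-0.07 ± 0.15, SE). With the 6 exposures pooled, the mean of probe ‘1068’ was 9.72 ± 0.24 (SD) over the 48 mice of month 1, against 10.27 ± 0.23 in those of month 6 and 10.25 ± 0.25 in those of month 12. These are log2 differences from month 1 of 0.55 ± 0.05 (SE; 1.46-fold) and 0.53 ± 0.05 (1.45-fold), and of -0.01 ± 0.05 between the later months. All 48 mice of month 6 and 47 of 48 at month 12 lay above the month 1 median of their own exposure, and 35 and 37 of them above its highest mouse. Between months 6 and 12 there was no such ordering, with 22 of 48 mice of month 12 above the month 6 median. The probe was chosen by its rise after month 1, so the counts against month 1 restate that choice. They were not set against the share of all tested probes.

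Probe ‘1063’ pooled over exposures averaged 8.47 ± 0.33 (SD, n = 48), 8.72 ± 0.30 and 9.09 ± 0.29 at months 1, 6 and 12. Its differences were 0.25 ± 0.06 (SE; 1.19-fold) from month 1 to 6, 0.37 ± 0.06 (1.30-fold) from month 6 to 12 and 0.62 ± 0.06 (1.54-fold) over the whole interval. At month 12 all 48 mice were above the month 1 median of their exposure and 29 above its highest mouse, against 40 and 8 at month 6. So on this scale probe ‘1068’ differed between month 1 and the rest, and probe ‘1063’ differed at each step. Among the 742 tested probes ordered from the largest rise down, probe ‘1068’ stood at place 2 for month 6 minus month 1 and place 12 for month 12 minus month 1. Probe ‘1063’ stood at places 51 and 8, and at place 8 also for month 12 minus month 6. The probes were chosen by their rise, so high places and the counts of mice against month 1 restate that choice. The share of all tested probes with such counts was not computed, and the places are those of the quantile normalized values.

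Exposure by exposure, the month 6 minus month 1 difference of probe ‘1068’ ran from 0.43 ± 0.12 (SE) at 40 µg to 0.63 ± 0.12 at 80 µg among the particle groups, and the month 12 minus month 1 difference from 0.39 ± 0.12 at 1 µg to 0.56 ± 0.12 at 80 µg. From month 6 to month 12 its 6 exposures lay between -0.10 (crocidolite) and 0.11 (40 µg), each within 1 SE of 0. Mice of the 1 µg group at month 12 were the most spread for this probe, with a lowest, median and highest value of 9.70, 10.07 and 10.77 and an SD of 0.42, against 0.12 at 80 µg. For probe ‘1063’ the month 12 minus month 1 difference was even across particle groups, from 0.56 to 0.63 (SE 0.15). Its estimates of the month 6 minus month 1 difference varied more, from -0.07 ± 0.15 at 40 µg to 0.40 ± 0.15 for crocidolite. At 40 µg the month 12 minus month 6 difference was 0.63 ± 0.15, between different mice. The F test of exposure by month, given below, did not pass for this probe. A timing particular to 40 µg was therefore not shown.

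**Figure D2:**
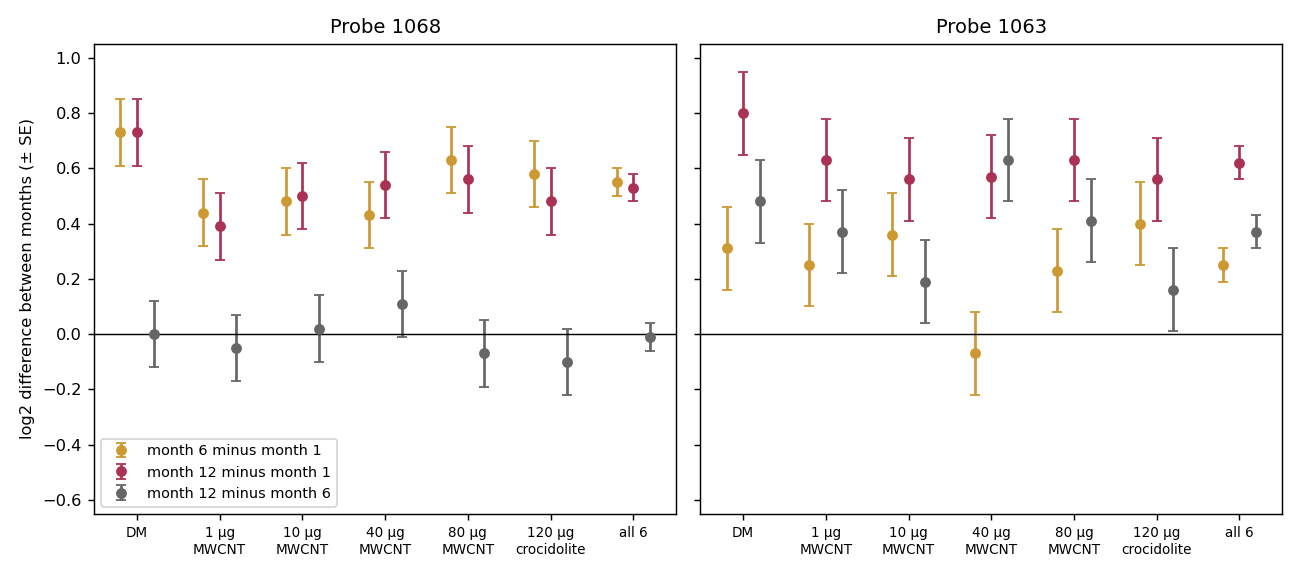
Log2 differences between months for probe ‘1068’ (left) and probe ‘1063’ (right) in each exposure and over all 6 exposures; points are fitted differences and bars ± SE. For probe ‘1068’ the month 6 and month 12 differences from month 1 lie together (0.55 and 0.53 over all exposures) with month 12 minus month 6 at -0.01, whereas for probe ‘1063’ the values over all exposures are 0.25, 0.62 and 0.37.

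Set in order, the 18 group means of probe ‘1068’ fell into a lower and an upper set. Both probes were chosen for being higher after month 1, so an order by month restates that choice and is a description. It is that of the quantile normalized values, and the month 6 groups moved under other scaling, as given below. The 6 lowest were the month 1 groups, from DM at 9.55 to 1 µg at 9.82. The gap from there to the next group, crocidolite at month 12 with 10.17, was 0.349, or 1.42 times the pooled SD between mice. No other neighbours were farther apart than 0.132 (0.537 SD), among the month 1 groups or among the 12 later groups up to 40 µg at month 12 with 10.35. This SD is that of single mice, not of a mean of 8. The month 1 means together spanned 0.26, so gaps between neighbours do not settle the order of the groups. The means of probe ‘1063’ formed a more even series, from crocidolite at month 1 with 8.35 to DM at month 12 with 9.24. The 6 month 12 groups were the highest 6, and the 40 µg group of month 6, at 8.46 ± 0.31 (SD, n = 8), lay among the month 1 groups. Its widest gap between neighbours, from 8.52 to 8.72, was 0.198, or 0.647 SD, so no neighbours in that order were separated by more than the spread of single mice.

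How much of the month 6 rise was seen depended on the scaling between arrays. As scanned, the median intensity of probe ‘1068’ over 48 mice was 960 units at month 1, 1100 at month 6 and 1242 at month 12, and that of probe ‘1063’ was 336, 355 and 524. In DM alone, probe ‘1063’ had a lower median as scanned at month 6 (262 units) than at month 1 (311) and the highest at month 12 (558). With no scaling, the month 6 minus month 1 difference over all exposures was 0.19 for probe ‘1068’ and -0.03 for probe ‘1063’, and the median of all tested probes was -0.09. The month 12 minus month 1 differences were 0.48 and 0.61, with the median of all tested probes at -0.01, close to the scaled values. Another view came from scaling each array by the trimmed mean of its bright probes, as the methods of the study describe, and from the deposited table. There the whole set of tested probes moved up at month 6, with a median of 0.22. Relative to that median, month 6 minus month 1 was 0.28 to 0.34 for probe ‘1068’ and 0.06 to 0.10 for probe ‘1063’, and month 12 minus month 1 was 0.48 to 0.51 and 0.62 to 0.71. The month 12 rise of both probes was therefore of like size under each scaling. The month 6 rise of probe ‘1068’ shrank, and that of probe ‘1063’ came close to 0, when set against the median probe or left unscaled, so whether probe ‘1068’ had reached its month 12 level by month 6 was not fixed by these values.

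**Figure D3:**
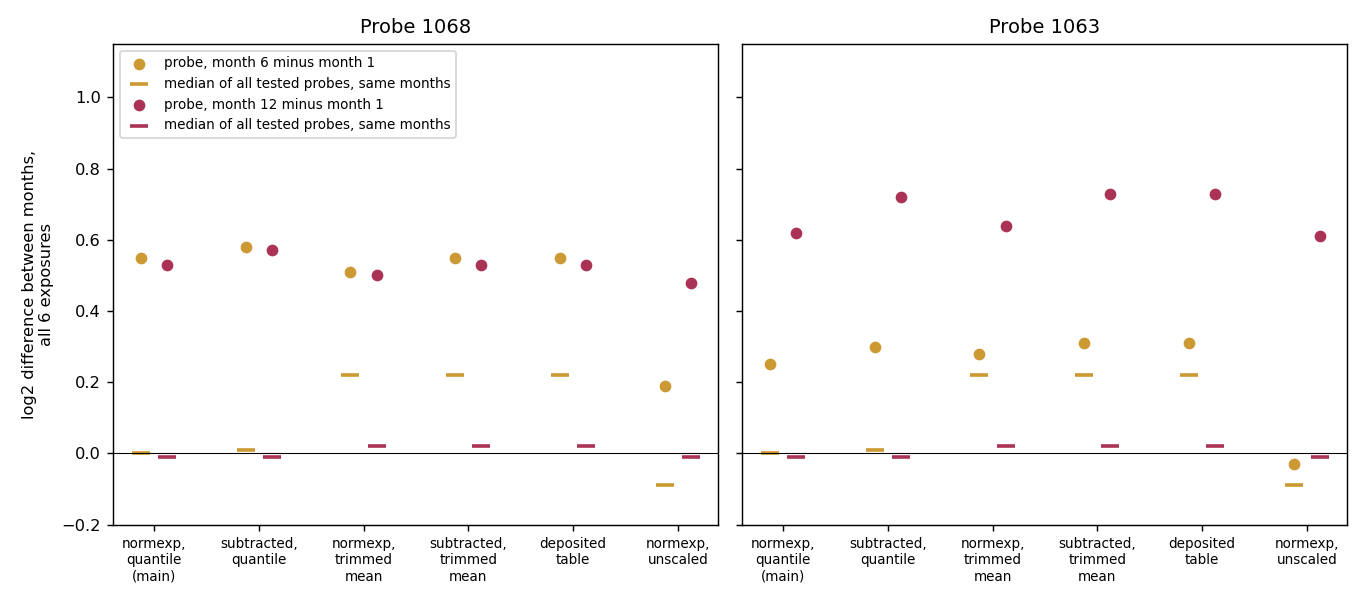
Log2 differences between months over all 6 exposures for probe ‘1068’ (left) and probe ‘1063’ (right) under 6 ways of making the values; dots are the probe and short lines the median of all tested probes for the same months. The month 12 dots lie between 0.48 and 0.58 for probe ‘1068’ and between 0.61 and 0.73 for probe ‘1063’, while the month 6 dots drop to 0.19 and -0.03 without scaling and stand over a median of 0.22 under trimmed mean scaling and in the deposited values.

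The rise was also read within scan days and array positions, in the quantile normalized values only. The month 6 differences here therefore rest on that scaling and are no separate support for a month 6 rise. Scan day 3 held 2 arrays of month 6, and scan day 4 held 4 arrays of month 1. Months 1 and 6 shared 5 of the 7 scan days, and on all 5 probe ‘1068’ was higher at month 6, by 0.31 to 0.68. Months 1 and 12 shared 5 days as well, with differences of 0.48 to 1.02, where the highest rested on 4 arrays against 1. Probe ‘1063’ was higher at month 6 on 5 of 5 days, by 0.05 to 0.42, and at month 12 on 5 of 5 days, by 0.42 to 0.85. At each of the 4 positions on the slide both probes were higher at the later months, by 0.43 to 0.64 (month 6) and 0.43 to 0.71 (month 12) for probe ‘1068’, and by 0.13 to 0.45 and 0.52 to 0.74 for probe ‘1063’.

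Whether exposure changes the level of either probe was asked by comparing each particle group with the DM mice of the same month, with limma over all tested probes. Neither probe was called in any of the 15 comparisons, where a call needed a fold of 1.5 together with p under 0.05 before and under 0.10 after Benjamini-Hochberg adjustment. In 14 of the 15 comparisons 0% of all tested probes were called, and in the other, 80 µg at month 6, 0.270% were. Unadjusted p was under 0.05 in 2 comparisons for probe ‘1068’ and in 1 for probe ‘1063’, while the share of all tested probes under 0.05 was 1.75% to 20.2% with a median of 5.26%.

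At month 1 all 5 particle groups had a higher mean of probe ‘1068’ than DM, the lowest of the 18 group means. The differences ran from 0.13 ± 0.12 (SE) for crocidolite to 0.26 ± 0.12 at both 1 µg and 40 µg, with 95% intervals of 0.02 to 0.51 and 0.02 to 0.50 for the latter and adjusted p values of 0.99 and 0.428 in limma. The lowest, median and highest values were 9.27, 9.78 and 10.31 at 1 µg and 9.43, 9.77 and 10.20 at 40 µg, against 9.29, 9.51 and 9.82 in DM, so the groups overlapped and the particle groups reached higher. Of 8 mice per group, 7, 8, 7, 7 and 6 were above the DM median at 1, 10, 40 and 80 µg and crocidolite. The 5 comparisons share the same 8 DM mice, so they are not 5 separate signs of a difference. DM mice also took part in choosing the probe by its rise, which can favour a low DM mean at month 1. How much they weighed in that choice is not known. Slide position went largely with exposure, and with position as a term the 1 µg and 40 µg differences were 0.24 ± 0.19 and 0.23 ± 0.18 (SE). At months 6 and 12 the differences of probe ‘1068’ from DM lay between -0.12 and 0.06, and every 95% interval was inside -0.36 to 0.31.

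For probe ‘1063’ it was month 12 at which DM stood at one end, where it had the highest of all group means and the 5 particle groups were at differences of -0.11 to -0.33. DM mice took part, with a weight that is not known, in choosing this probe by its rise, which can favour a high DM mean at that month. Crocidolite was farthest from DM, at -0.33 ± 0.15 (SE), 95% interval -0.63 to -0.03, adjusted p = 0.903 in limma, with 6 of its 8 mice below the DM median and 5 below the lowest DM mouse. In the crocidolite group the lowest, median and highest values were 8.32, 8.85 and 9.41, against 8.93, 9.26 and 9.50 in DM, so the groups overlapped in the upper part. At month 6 the 40 µg group differed from DM by -0.30 ± 0.15, adjusted p = 0.297 in limma. Its values of 7.92, 8.45 and 8.89 reached below the DM range of 8.37 to 9.13. At month 1 the differences of probe ‘1063’ from DM lay between -0.09 and 0.08. DM, 10 µg and 80 µg arrays lay almost all at slide positions A or C and 1 µg, 40 µg and crocidolite arrays at B or D. The exceptions were 1 array each at 1 µg, 40 µg and 80 µg. A position term rests on those arrays and cannot separate position from exposure. For 40 µg at month 6 it raised the SE from 0.15 to 0.24. Over 14 alternatives, this term among them, the 2 largest differences of probe ‘1063’ ranged from -0.55 to -0.30 (crocidolite, month 12) and from -0.52 to -0.30 (40 µg, month 6).

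**Figure D4:**
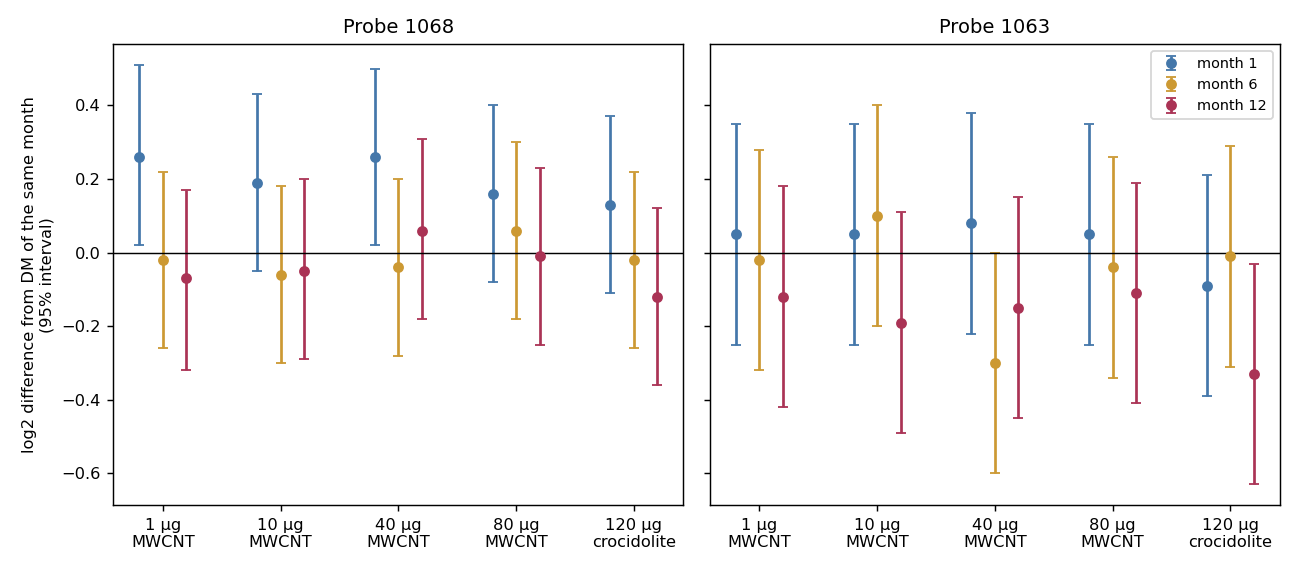
Log2 difference of each particle group from the DM group of the same month for probe ‘1068’ (left) and probe ‘1063’ (right), with 95% intervals from limma; colour gives the month. At month 1 the 5 points of probe ‘1068’ lie above 0 (0.13 to 0.26) and at month 12 the 5 points of probe ‘1063’ below 0 (-0.11 to -0.33), and no difference was called.

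No trend with MWCNT dose passed the test for either probe. The fitted log2 change from DM to 80 µg was 0.11 ± 0.10 (SE) for probe ‘1068’ at month 1, 0.03 ± 0.10 at month 6 and 0.06 ± 0.10 at month 12, with adjusted p from 0.656 to 0.98 in limma. For probe ‘1063’ it was 0.05 ± 0.13, -0.15 ± 0.13 and -0.09 ± 0.13, with adjusted p from 0.506 to 0.98. A trend was called for 0%, 1.62% and 0% of tested probes at months 1, 6 and 12. Crocidolite and 40 µg MWCNT did not differ by a call either, with 0% of probes called at each month. The largest difference between them was in probe ‘1063’ at month 6, where crocidolite minus 40 µg was 0.29 ± 0.15, adjusted p = 0.995.

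The rise itself was then compared between exposed and DM mice. The fitted rise was smaller in the exposed mice for both probes and both months, and no difference passed the test. For probe ‘1068’ the mean rise of the 5 particle groups minus that of DM was -0.22 ± 0.13 (SE) at month 6, 95% interval -0.48 to 0.05, and -0.24 ± 0.13 at month 12, interval -0.50 to 0.03, with adjusted p of 0.405 and 0.713 in limma. For probe ‘1063’ it was -0.08 ± 0.17, interval -0.41 to 0.25, and -0.21 ± 0.17, interval -0.54 to 0.12, with adjusted p of 0.849 and 0.793. The 4 values share the month 1 mice, and 0% of tested probes were called at either month. DM mice also took part in choosing the probes by their rise, with a weight against the exposed mice that is not known. That choice can favour a large DM rise and so negative values here. What gave the shared sign was not tested, and it is not read as an effect of exposure. These intervals leave room for a rise in exposed mice smaller by up to 0.54 on the log2 scale, so a like rise in exposed and DM mice was not shown.

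The differences between exposures were also tested for a change with month. An F test of exposure by month gave F = 0.72 with an adjusted p of 0.915 for probe ‘1068’ and F = 0.973 with an adjusted p of 0.838 for probe ‘1063’, and 0% of the tested probes passed. Of the sum of squares of probe ‘1068’ over 144 mice, month took 53.5%, exposure 1.03%, exposure by month 2.44% and differences between mice of 1 group 43.1%. For probe ‘1063’ the shares were 41.9%, 1.97%, 3.98% and 52.2%. Month was the largest labelled term for both, and month is what the probes were chosen on, while mice of 1 group took a share of like size.

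Mice high in one probe for their group also tended to be high in the other, both values of a mouse coming from the same array. After each group mean was taken out, the deviations of the 144 mice had a Pearson r of 0.38 (permutation within groups, two-sided, p = 3e-05, adjusted p = 0.00012 over the 4 sets of mice) and a Spearman rho of 0.35 (p = 9e-05, adjusted p = 0.00036). Within month 1 r was 0.39 (adjusted permutation p = 0.0142), within month 6 0.39 (0.0143) and within month 12 0.36 (0.0193), with 48 mice each and rho of 0.35, 0.37 and 0.34. The relation was loose: in single groups of 8 mice r ran from -0.25 to 0.86 with a median of 0.35, and 15 of 18 groups had r above 0. The closest were 1 µg at month 6 (0.86), 40 µg at month 1 (0.77) and crocidolite at month 12 (0.68), and the 3 below 0 were 10 µg at months 6 and 12 (-0.25 and -0.03) and 80 µg at month 12 (-0.20).

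The correlation was of like size under other processing and varied between scan days. Without the 2 mice whose deviations of probe ‘1068’ from the group mean lay farthest from the median deviation, r was 0.34 over 142 mice (permutation p = 3e-05) and rho 0.33. With array brightness as a term r was 0.37, with scan day as a term 0.39, with slide means taken out as well 0.36, and in the deposited values 0.36. Deviations from the group mean had an r with array brightness of 0.09 for probe ‘1068’ and 0.12 for probe ‘1063’. On the 6 scan days with at least 6 arrays r was 0.56, 0.22, 0.62, 0.38, 0.57 and 0.04, so it was above 0 on each of them and lowest on a day when the probes hardly moved together.

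**Figure D5:**
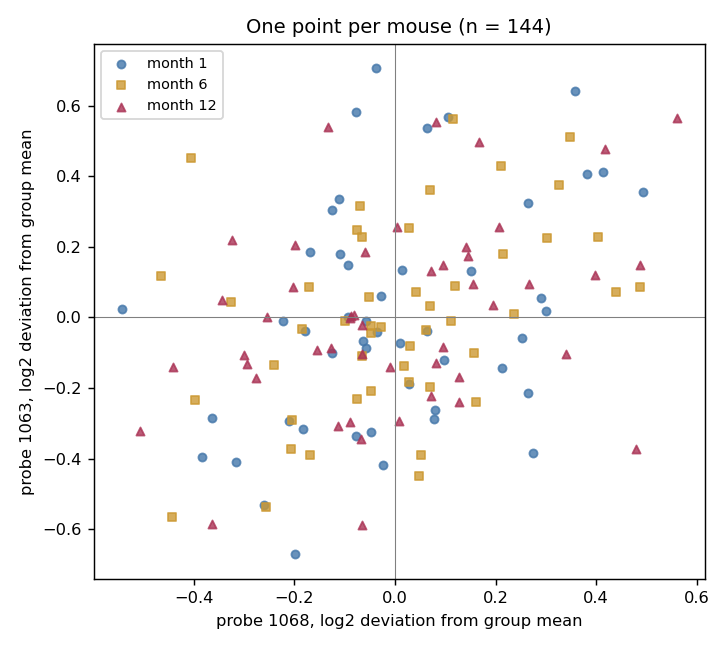
Deviation of each mouse from its group mean for probe ‘1068’ (horizontal axis, log2) and probe ‘1063’ (vertical axis, log2), 144 mice with colour and shape by month. The points lean from lower left to upper right with r = 0.38 over all mice and 0.36 to 0.39 within months, around a wide scatter.

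The pair was not each other's closest match. Over the 144 deviations, probe ‘1063’ stood at place 32 of 741 among the probes most like probe ‘1068’, and probe ‘1068’ at place 80 among those most like probe ‘1063’, where the median r of all probes was 0.01 and 0.03. Over the 18 group means their r was 0.74, at places 27 and 22. These likenesses are descriptions over values of the same arrays, with no test. Probe 3063 was the closest to probe ‘1063’ both over group means (r = 0.94) and between mice (r = 0.79), and it had a like course, 0.30 ± 0.09 (SE) from month 1 to 6, 0.40 ± 0.09 from month 6 to 12 and 0.70 ± 0.09 over the whole interval. Closest to probe ‘1068’ over group means was probe ORB_0608052 (r = 0.92), with an early step of 0.41 ± 0.07 from month 1 to 6 and -0.02 ± 0.07 after it. Between mice the closest to probe ‘1068’ was another probe, ‘2909’ (r = 0.68), whose month differences were small, 0.10 ± 0.04 at both later months. For the mean of the pair, probe ‘1485’ had the closest course over group means (r = 0.94), with differences from month 1 of 0.53 ± 0.07 and 0.84 ± 0.07, and probe ‘2908’ was closest between mice (r = 0.70), at 0.01 ± 0.05 and 0.08 ± 0.05. Thus the top probe was the same in both views for probe ‘1063’ and not for probe ‘1068’. The second closest probe had an r over group means of 0.91 for probe ‘1068’ and 0.92 for probe ‘1063’. Between mice it had 0.59 and 0.72, and for the mean of the pair the second r was 0.93 and 0.70. Which probe came first is therefore only loosely fixed, and no contrast within the pair is read from it.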

How the data were processed

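Blood RNA of 144 mice was measured on custom multi-species miRNA arrays, with 3 spots per mouse probe, on 38 slides read on 7 scan days in 42 scans. Per the labels and file headers, the authors isolated total RNA from blood, labelled its low molecular weight fraction with 1 fluorescent dye and read spots in GenePix. What they deposited from the scanner is each spot's median foreground and local background intensity, linear and not normalized. The deposited value table holds log2 intensity of 1262 mouse probes. Subtracting background from unflagged spots, setting values under 1 to 1, taking log2 and averaging gave its values on each array up to 1 added constant (SD of the difference at most 1.2e-09; constants -0.91 to 1.66; column medians 4.46 to 6.97), which settled its scale, direction and mapping. It was used as an alternative. A scan at another gain was not used (1 file), and 4 arrays had been dipped and scanned again.

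Scanner values were corrected with limma 3.58.1 (R 4.3.3) by normexp, offset 50, flagged spots were left out, spots were averaged on the log2 scale and the mouse probes were quantile normalized. The offset compresses fold changes of dim probes. The detection threshold was the 10% trimmed mean of an array's 21 empty spots plus 5 of their SDs (12.97 to 62.59 units). A probe was tested when above threshold on all 8 arrays of a group, which held for 742 probes (58.8%).

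Limma was fitted on 18 group means with 1 shared spread, and Benjamini-Hochberg adjustment ran over all tested probes within a comparison. Calls used the thresholds of the study's methods; dose trend (linear in log2(dose + 1)), rise and interaction had no fold limit. All p-values are two-sided. The correlation between probes was tested by permuting mice within groups. Detection here differs from the study's, which used negative control spots. Precision is limited by the number of arrays. The labels mark the samples as separate mice, with a sample number in each title but no replicate number within a group, so replicate numbers here only name a mouse.

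Probes ‘1068’ and ‘1063’ and the tests were chosen with earlier results of these data known. Besides these probes, the rule for named probes took the tested probe with the highest Pearson r to each and to their mean, over group means and over deviations. The models were checked on simulated data. Alternatives covered background correction, scaling, the filter on dim probes, the deposited values, slide, scan day, position, brightness and dim arrays; leaving out the arrays scanned again, leaving out DM mice in turn and no scaling were added after the data were seen.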

Additional observations from a re-analysis of the deposited data

Results flagged for a closer look

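One of the 36 sets of 8 mice (18 groups for each probe) held a mouse far from the rest by Dixon's test, which chance alone gives in about 1 of 20 sets. Replicate 6 of the crocidolite group at month 6 had 9.87 for probe ‘1068’, where the nearest other mouse had 10.20 and the highest 10.48, so the gap was 0.536 of the range, just past the test's limit for 8 mice. Its intensity was 565 units above background and the SD of its 3 spots 0.0782. The group mean was 10.26 ± 0.18 (SD, n = 8) with this mouse and 10.32 without it.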

How the results depend on the processing

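Neither probe was called in any exposure comparison, dose trend, rise contrast, crocidolite comparison or F test under any alternative tried; the lowest adjusted p against DM was 0.315 for probe ‘1068’ and 0.215 for probe ‘1063’. The month 12 minus month 1 difference over all exposures ran, over 13 alternatives, from 0.48 to 0.58 (probe ‘1068’) and from 0.61 to 0.73 (probe ‘1063’), and within scan day 7 alone (4 arrays against 1) it was 1.02 for probe ‘1068’. With each DM mouse left out in turn, month 6 minus month 1 in DM ranged from 0.68 to 0.80 and 0.24 to 0.40, month 12 minus month 1 from 0.66 to 0.77 and 0.72 to 0.88, and month 12 minus month 6 from -0.07 to 0.05 and 0.42 to 0.53, for probes ‘1068’ and ‘1063’.

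Leaving arrays unscaled, which keeps the dimmer month 6 arrays dim, moved month 6 most. For probe ‘1068’, month 6 minus month 1 became 0.19 over all exposures, 0.21 over the exposed groups, 0.12 in DM, 0.15 for crocidolite and 0.10, 0.07 and 0.01 at the doses of 1, 10 and 40 µg, and month 12 minus month 1 at 80 µg became 0.82. Its month 12 minus month 6 difference became 0.28 over all exposures, 0.23 over the exposed groups, 0.54 in DM, 0.28 at 10 µg, 0.44 at 40 µg and 0.21 for crocidolite. For probe ‘1063’, month 6 minus month 1 became -0.15 in DM, 0.02 at 10 µg and -0.01 for crocidolite, and month 12 minus month 6 in DM 0.87.

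Small differences from DM, none of them called, changed sign in places, and the cause was not tested. For probe ‘1063’ at month 1, 1 µg (0.05) became -0.01 with normexp and trimmed mean scaling, -0.01 in the deposited table and -0.17 with a position term, and 40 µg (0.08) became -0.12 with the position term. For probe ‘1068’ at month 6, 1 µg and crocidolite (each -0.02) became 0.04 with subtraction and 0.06 with normexp, both trimmed mean scaled, and without the 2 dimmest DM arrays 80 µg (0.06) became -0.01 and the dose trend (0.03) -0.02. At month 12, 40 µg (0.06) and the dose trend (0.06) of probe ‘1068’ each became -0.01 with subtraction and trimmed mean scaling and -0.01 in the deposited table, and without the arrays scanned again 10 µg (-0.05) became 0.02 and 80 µg (-0.01) became 0.06.

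No paired analysis was possible because the labels give no replicate number that groups share. Slides as a random block had a consensus correlation of 0.0997 and changed no call.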
